A study of Mus musculus with 11 samples.

Results

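The liver packs triglycerides and cholesterol esters into very-low-density lipoproteins (VLDL), and 10 genes of this route are described here: *Apob*, *Mttp* and *Tm6sf2*, which serve the assembly of the particle, *Apoa1*, *Apoa2* and *Apom*, whose proteins travel mainly on high-density lipoproteins (HDL), *Apoa4*, *Apoc1* and *Apoe*, whose proteins move between particles, and *Apoh*, a plasma glycoprotein. They were chosen by name, as the rows of the deposited table that carry these 10 symbols, and all 10 were among its 13669 rows. The data are 3′ mRNA counts from the livers of 11 young adult male C57BL/6J mice, wild type and on regular chow. Each mouse had received a recombinant adeno-associated virus of serotype 8 into the tail vein. In 6 mice (AAV-TuD, replicates 3, 4, 5, 9, 10 and 11) the virus carried a tough decoy, an RNA with binding sites for *miR-541* and *miR-379*, and in 5 (AAV-NC, replicates 1, 2, 6, 7 and 8) a negative control sequence. Both were transcribed from the LP1 promoter, which limits expression to hepatocytes and which joins a control region of a human apolipoprotein gene cluster to an alpha-1-antitrypsin promoter, so the control livers carried this element too. For its decoy mice in general the study's methods give an age on arrival, a period of acclimatisation, a short fast before killing and a range of times after injection. The age and the time of each mouse are not given in the sources used here.

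A VLDL particle forms around 1 molecule of apolipoprotein B in the endoplasmic reticulum. Microsomal triglyceride transfer protein, encoded by *Mttp*, loads lipid onto it while it is being made, and *Tm6sf2* encodes a membrane protein needed for adding the bulk of the lipid. Apolipoprotein E and the C apolipoproteins then join the surface of the particle, where apolipoprotein E is a ligand for hepatic uptake and the C apolipoproteins regulate lipolysis and uptake.

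Of these genes, *Apob* and *Tm6sf2* were lower in the livers that expressed the decoy. The mean level of *Apob* fell by 24.3% and that of *Tm6sf2* fell by 28.8%. No gene of the 10 was higher at the threshold. Neither *Apob* nor *Tm6sf2* was called lower when the libraries were scaled by total reads only. Within each liver, shares relative to the mean of the 10 genes need no scaling between libraries. By this measure *Apoe* and *Apoc1* were larger with the decoy, without overlap of the groups. A gene that keeps its level gains by this measure when most of the 10 are lower. The level of *Apoc1* itself differed little (log2 fold change 0.05, adjusted p = 0.811, edgeR). *Apob* and *Tm6sf2* were smaller, with overlapping groups and p-values not adjusted for the 10 shares compared.

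The mature sequences of the miRNAs that the decoy binds are printed here from RefSeq (GRCm38.p6), with the seed (bases 2 to 8) in capitals, because a direct target would be looked for by this seed. *miR-379* lies on chromosome 12 at 109709065 to 109709085 and *miR-541* at 109742422 to 109742446, both on the + strand.

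mmu-miR-379-5p: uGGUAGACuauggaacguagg

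mmu-miR-541-5p: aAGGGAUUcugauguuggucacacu

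Their seeds differ. The 7 letters complementary to them, GTCTACC for *miR-379* and AATCCCT for *miR-541*, were looked for on the transcript strand of every gene's longest 3′ UTR in GENCODE M21. Neither occurred in any of the 10 genes, whose UTRs ran from 64 bases for *Apoa1* to 1201 bases for *Mttp*. Among 10935 genes tested with such a UTR, 5.72% held the first and 9.51% the second. This says only that these letters are not in these UTRs. The study also reports lower levels of further miRNAs of the same genomic cluster with this decoy, and their seeds were not searched.

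The libraries held 8148531 to 12043959 gene-assigned reads. The miRNAs that the decoy binds are not measured by this assay. Transcripts of the major urinary proteins (*Mup* genes) took 38.6% of the reads in AAV-NC 7, 30.9% in AAV-TuD 3 and 28.4% in AAV-TuD 5, against 8.09% to 18.7% in the others. Levels are given in CPM, the reads of a gene relative to the total of its library, after TMM scaling in edgeR (factors 0.667 to 1.24). A 3′ library gives about 1 read per transcript whatever its length, so levels of different genes can be set side by side approximately. Fewer cells of a type and less RNA per cell cannot be told apart in whole liver.

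*Apob* (ENSMUSG00000020609, chromosome 12 from 7977648 to 8016835 on the + strand of GRCm38) encodes the structural protein of VLDL. It had 1731, 1647, 1360.3, 1636 and 1645 CPM in AAV-NC 1, 2, 6, 7 and 8, and from 1097 over a median of 1184 to 1417 CPM in the AAV-TuD livers. All 6 AAV-TuD livers lay below the AAV-NC mean and 5 of them below every AAV-NC liver, while AAV-TuD 3 exceeded the lowest control, AAV-NC 6. The means were 1604 ± 142 (SD, n = 5) and 1214 ± 130.4 CPM (SD, n = 6). This is a log2 fold change of -0.40 with a standard error of 0.10 (95% interval -0.61 to -0.20) and an adjusted p of 0.0146, by the quasi-likelihood test of edgeR and the Benjamini-Hochberg procedure across 13334 genes.

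*Tm6sf2* (ENSMUSG00000036151, chromosome 8 from 70072924 to 70080066, + strand) had 38.9, 35.8, 34.3, 30.3 and 44.7 CPM in the same 5 controls. In the AAV-TuD livers it ranged from 19.9 over a median of 27.3 to 29.5 CPM. The groups did not overlap, since the highest AAV-TuD liver lay just under AAV-NC 7. *Tm6sf2* was the only one of the 10 genes with all AAV-TuD livers below all controls, as were 3.28% of all genes tested. The means were 36.8 ± 5.39 (SD, n = 5) and 26.2 ± 3.62 CPM (SD, n = 6), with a log2 fold change of -0.49 (standard error 0.11, 95% interval -0.73 to -0.25, adjusted p = 0.0115 from the same edgeR test).

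*Mttp* (ENSMUSG00000028158, chromosome 3 from 138089854 to 138144968, - strand) had 123, 125, 109, 115 and 96.1 CPM in the controls and from 84.6 over a median of 93.0 to 111 CPM in the AAV-TuD livers. Every AAV-TuD liver was below the AAV-NC mean, and the groups overlapped. Its log2 fold change was -0.25 (95% interval -0.45 to -0.04, adjusted p = 0.105 from the same edgeR test), which does not pass the threshold.

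Thus 2 of 10 genes were lower and 0 higher at an adjusted p under 0.05, against 4.33% of all genes tested lower and 7.24% higher. At an unadjusted p under 0.05, 6 of the 10 were lower and none higher, against 11.8% of all genes tested lower and 14.5% higher. The median log2 fold change of the 10 genes was -0.21, beside 0.00 for all genes and -0.28 for the 100 most abundant genes, which include 5 of the 10 and of which 22 were lower and 4 higher. DESeq2 called 4 of the 10 lower (5.63% of all genes), adding *Apoa2* and *Apoh*.

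**Figure D1:**
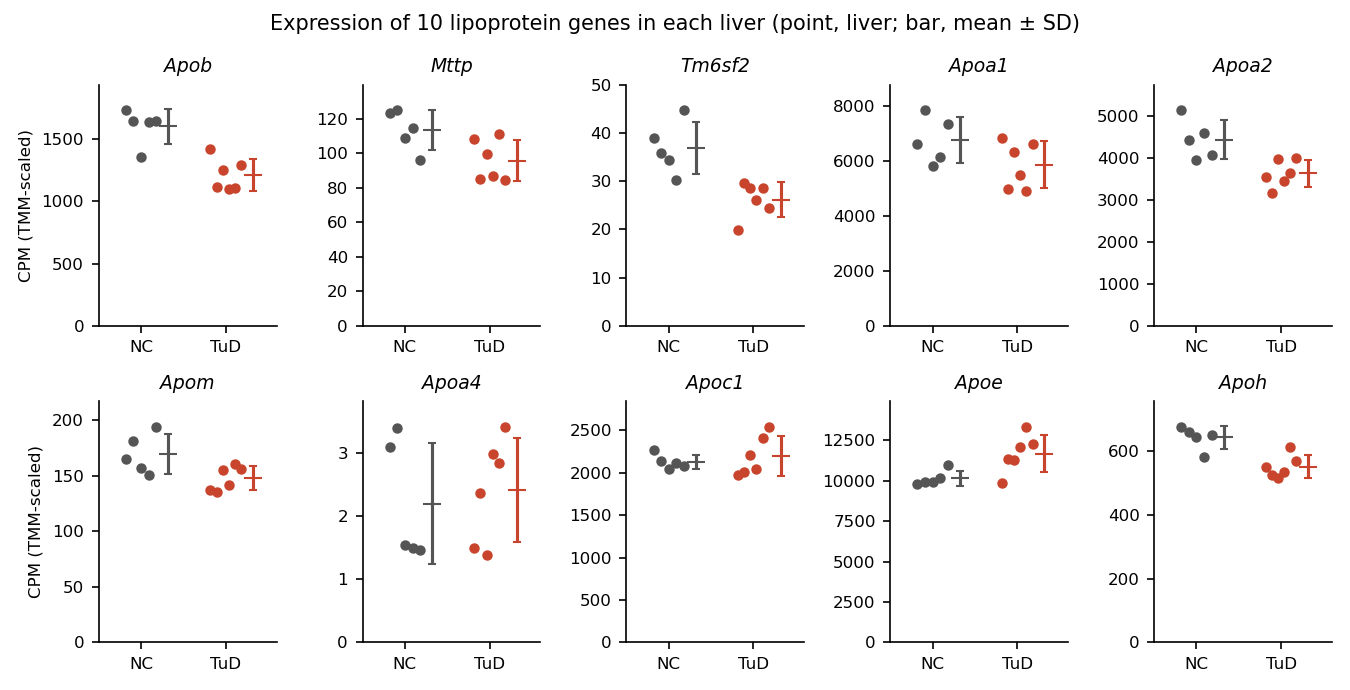
Level of each of the 10 genes in each liver, in CPM after TMM scaling, on axes that start at 0. Each point is 1 liver (5 AAV-NC in grey, 6 AAV-TuD in red) and the bar beside the points is the mean ± SD. The *Tm6sf2* groups do not touch, all but 1 AAV-TuD liver lie below the *Apob* controls, and *Apoe* has 5 of 6 AAV-TuD livers above all controls.

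Both calls depended on how the libraries were scaled. Scaling by total reads only (library size alone), which moved the median of all genes to 0.23, changed *Apob* to -0.18 (adjusted p = 0.524, edgeR) and *Tm6sf2* to -0.26 (adjusted p = 0.417, edgeR), so that 0 of the 10 genes were lower, against 0.532% of all genes. Relative to that median the differences were -0.41 and -0.49. With cyclic loess in limma-voom, which removes a trend with abundance, *Tm6sf2* stayed lower (-0.46, adjusted p = 0.0289, limma), *Apob* reached -0.22 (adjusted p = 0.0783, limma) and *Apoe* was called higher (0.45, adjusted p = 0.0115, limma). This fit called 2.35% of all genes lower and 5.32% higher.

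Leaving out any single liver kept both calls, with *Apob* between -0.46 and -0.37 and *Tm6sf2* between -0.55 and -0.41 on the log2 scale. Without the 3 livers richest in *Mup* reads together, a choice made after the data were seen, *Apob* stood at -0.47 (adjusted p = 0.0142, edgeR) and *Tm6sf2* at -0.50 (adjusted p = 0.0100, edgeR).

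**Figure D2:**
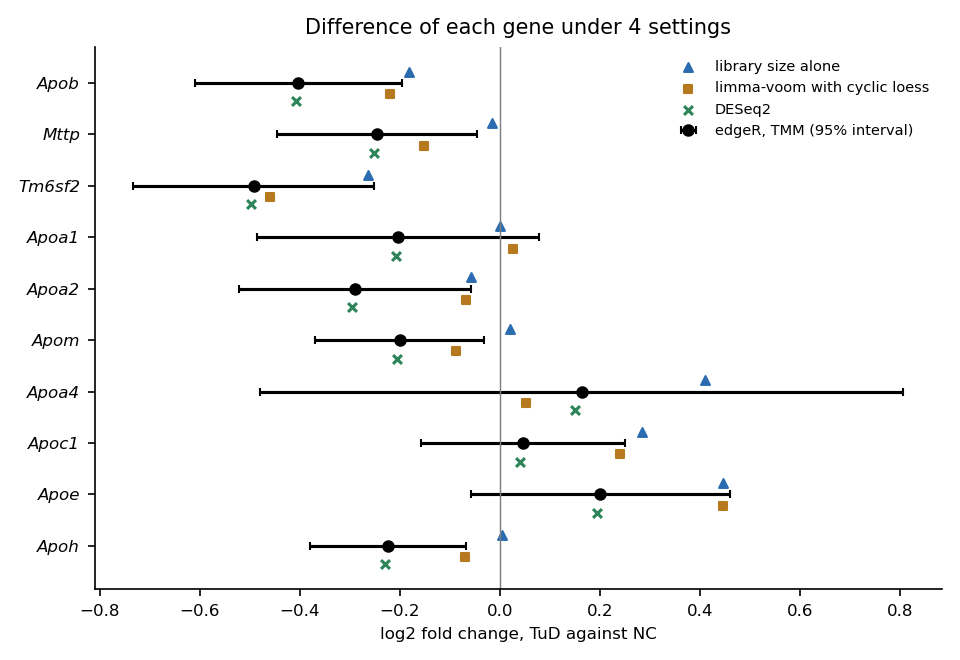
Log2 fold change of each gene, AAV-TuD against AAV-NC, with its 95% interval from edgeR with TMM (black), and the values from library size alone (triangles), cyclic loess (squares) and DESeq2 (crosses). *Apob* and *Tm6sf2* lie below 0 under each setting, while *Apoh* and *Apom* cross to slightly positive values with library size alone and *Apoa1* with cyclic loess.

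The genes of HDL proteins had lower means with AAV-TuD, and none passed the test. *Apoa1* (ENSMUSG00000032083, chromosome 9 from 46228580 to 46230466, + strand), the main protein of HDL, had 6605, 7828, 5802, 6138 and 7333 CPM in the controls and from 4908 over a median of 5905 to 6829 CPM in the AAV-TuD livers. The ranges overlapped widely. Its log2 fold change was -0.20 (95% interval -0.48 to 0.08, adjusted p = 0.363 from the same edgeR test), and it became 0.03 with cyclic loess.

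*Apoa2* (ENSMUSG00000005681, chromosome 1 from 171225054 to 171226379, + strand), the second protein of HDL, had 5132, 4429.9, 3958, 4589 and 4063 CPM in the controls. In the AAV-TuD livers it ranged from 3175 over a median of 3593 to 4006 CPM, and 4 of the 6 lay below every control. Its log2 fold change was -0.29 (95% interval -0.52 to -0.06) with an adjusted p of 0.0995 by edgeR and 0.0110 by DESeq2.

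*Apom* (ENSMUSG00000024391, chromosome 17 from 35128997 to 35132050, - strand), whose protein carries sphingosine-1-phosphate on HDL, had 165, 182, 157, 150.5 and 194 CPM in the controls. The AAV-TuD livers ran from 136 over a median of 148 to 160.2 CPM, so that 3 of 6 lay below all controls. The log2 fold change of -0.20 (95% interval -0.37 to -0.03, adjusted p = 0.117 from the same edgeR test) changed to 0.02 with library size alone.

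*Apoh* (ENSMUSG00000000049, chromosome 11 from 108343354 to 108414396, + strand) encodes beta-2-glycoprotein I, a phospholipid-binding protein of plasma. It had 675, 659.9, 645, 581 and 651 CPM in the controls and from 514 over a median of 543 to 612 CPM with AAV-TuD, where 5 of 6 livers lay below all controls. Only AAV-TuD 10 exceeded AAV-NC 7. The log2 fold change was -0.22 (95% interval -0.38 to -0.07, adjusted p = 0.0608, edgeR). The adjusted p was 0.00678 with DESeq2, and with edgeR it fell below 0.05 without AAV-NC 7 or without AAV-TuD 10 (lowest 0.0443) or with *Mup* genes removed from the table (0.0460). With library size alone its log2 fold change was 0.00.

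The genes of exchangeable apolipoproteins did not pass the test in either direction. *Apoe* (ENSMUSG00000002985, chromosome 7 from 19696109 to 19699188, - strand) was the most abundant of the 10 and number 15 among all genes tested. It had 9803, 9955, 9955, 10169.6 and 10957 CPM in the controls and from 9842 over a median of 11722 to 13337.5 CPM in the AAV-TuD livers. In 5 of 6 AAV-TuD livers it exceeded every control, and AAV-TuD 3 was at the lower end of the controls. Its log2 fold change was 0.20 (SE 0.12, 95% interval -0.06 to 0.46, adjusted p = 0.319 from the same edgeR test).

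*Apoe* is also transcribed by macrophages and stellate cells, and markers of both moved with the groups. The summed level of 13 Kupffer cell and macrophage markers was 163 to 243 CPM in the controls and 197 to 537 CPM with AAV-TuD, with 5 of 6 AAV-TuD livers above all controls, and 10 of the 13 were higher. The summed level of 10 stellate cell markers was 227 to 306 and 394 to 508 CPM, with 6 of 10 higher. Their most abundant members were *Ctss* (27.2 ± 1.79 CPM, SD, n = 5, against 53.3 ± 13.9 CPM, SD, n = 6) and *Dcn* (150.1 ± 21.7 CPM, SD, n = 5, against 259 ± 23.4 CPM, SD, n = 6). All 13 and all 10 passed the filter on low counts. Their part in the *Apoe* values was not tested. Of all genes tested 7.24% were higher and 4.33% lower, the shares to set beside these counts and those below. Of 13 hepatocyte markers 2 were lower (*Hnf4a* and *Asgr1*) and none higher. Their summed level was 37815 to 42239 CPM in the controls and 45151 to 54391 CPM with AAV-TuD, above all controls in 6 of 6 livers. Most of this sum is albumin, *Alb*, at 21096 ± 2304 CPM (SD, n = 5) and 28044 ± 2727 CPM (SD, n = 6), whose adjusted p was 0.0805 (edgeR). Of 10 sinusoidal endothelial markers none passed in either direction, and of 5 cholangiocyte markers tested 4 were higher (24.0 to 45.6 CPM summed in the controls, 51.3 to 83.9 CPM with AAV-TuD).

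*Apoc1* (ENSMUSG00000040564, chromosome 7 from 19689481 to 19692660, - strand), the neighbour of *Apoe*, had 2263, 2132, 2041, 2113 and 2083 CPM in the controls. The AAV-TuD livers spread more widely, from 1971 over a median of 2128 to 2539 CPM, with 2 above and 2 below all controls. Its log2 fold change was 0.05 (95% interval -0.16 to 0.25, adjusted p = 0.811 from the same edgeR test).

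*Apoa4* (ENSMUSG00000032080, chromosome 9 from 46240696 to 46243459, + strand), an apolipoprotein of intestine and of the fasted or lipid-loaded liver, was barely detected. It had 26, 27, 14, 12 and 15 reads in the controls and between 13 and 40 reads in the AAV-TuD livers, which is 1.46 to 3.40 and 1.38 to 3.42 CPM. Its interval, from -0.48 to 0.81 around a log2 fold change of 0.16, leaves a difference in either direction undetectable at this depth.

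In order of abundance the 10 genes were *Apoe*, *Apoa1*, *Apoa2*, *Apoc1*, *Apob*, *Apoh*, *Apom*, *Mttp*, *Tm6sf2* and *Apoa4*, at positions 15, 30, 40, 60, 78, 143, 588, 920, 2824 and 10774 among the genes tested. The spread between control livers was smallest for *Apoc1*, with a coefficient of variation of 3.94%, and lay between 4.52% and 14.6% for the others except *Apoa4* (43.7%).

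The 10 genes were also compared within each library, as the share of each gene among the reads of all 10, which no scaling factor enters. Together they took 2.41 ± 0.419% of all reads in AAV-NC (SD, n = 5) and 2.76 ± 0.422% in AAV-TuD (SD, n = 6), with overlapping ranges. *Apoe* supplied 36.9%, 36.9%, 41.4%, 39.8% and 40.5% of these reads in AAV-NC 1, 2, 6, 7 and 8, and from 40.3% to 50.7% in the AAV-TuD livers. Only AAV-TuD 3 lay within the range of the controls. The means were 39.1 ± 2.08% (SD, n = 5) and 46.0 ± 3.87% (SD, n = 6), with p = 0.0108 in a two-sided exact permutation test over the 462 splits of the livers.

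The share of *Apob* went the other way. It was 6.52%, 6.10%, 5.65%, 6.41% and 6.08% in the controls and 4.21% to 5.80% in the AAV-TuD livers, of which 5 lay below every control. The means were 6.15 ± 0.340% (SD, n = 5) and 4.79 ± 0.554% (SD, n = 6), with p = 0.00649 in the same exact permutation test. The smallest p that this test can give is 0.00216. The p-values of these shares are unadjusted, and 10 shares were compared.

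A larger share of *Apoe* lowers every other percentage by construction, so the shares were also centred on the mean log2 share of the 10 genes. On this scale *Apoe* was 0.36 higher and *Apoc1* 0.21 higher with AAV-TuD, and for both every AAV-TuD liver lay above every control (p = 0.00216 for each, exact permutation test, unadjusted). The differences on this scale balance out over the 10 genes, so a gene of unchanged level rises when most of the others fall. The level of *Apoc1* had a log2 fold change of only 0.05 (adjusted p = 0.811, edgeR). *Apob* was 0.24 lower (p = 0.0390, exact permutation test) and *Tm6sf2* 0.32 lower (p = 0.0238, exact permutation test), with overlapping groups. The other 6 genes had unadjusted exact p-values from 0.113 to 0.738, and their differences ran from 0.12 lower for *Apoa2* to 0.33 higher for the sparse *Apoa4*.

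**Figure D3:**
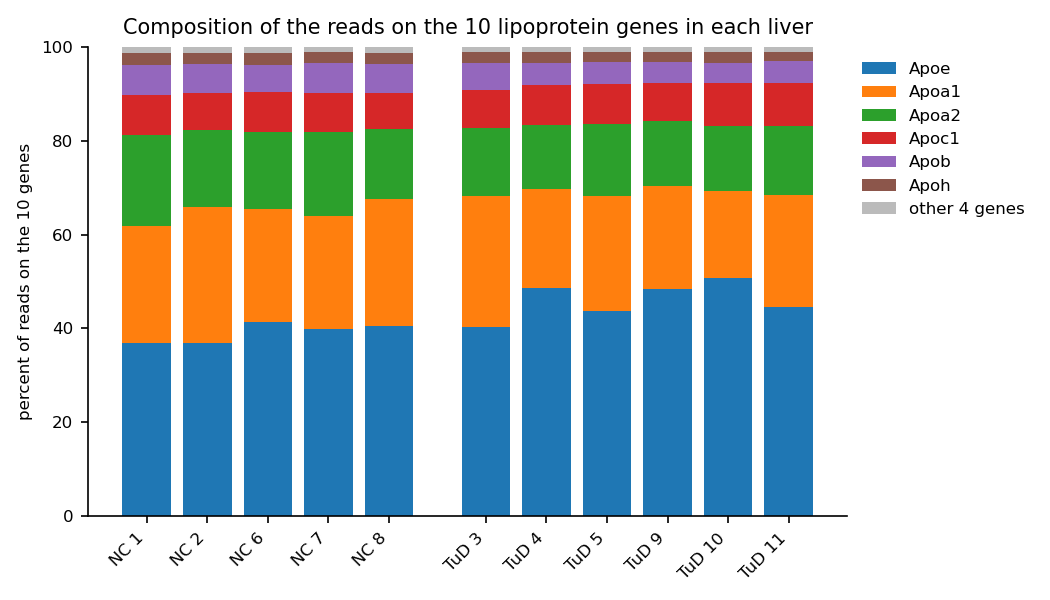
Share of each gene among the reads on the 10 genes, in percent, with 1 bar per liver (AAV-NC left, AAV-TuD right). The *Apoe* segment reaches 36.9% to 41.4% in the controls and 40.3% to 50.7% in AAV-TuD, and the *Apob* segment covers 5.65% to 6.52% in the controls and 4.21% to 5.80% in AAV-TuD.

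The number of *Apoe* reads for each *Apob* read shows the opposite course in a single value, a pair chosen after the values were seen and given without a test. It was 5.66 to 7.32 in the controls (median 6.22) and 6.94 to 12.1 with AAV-TuD (median 9.84), with 5 of 6 AAV-TuD livers above all controls. *Tm6sf2* reads per *Apob* read were alike in range, 0.0185 to 0.0272 in the controls and 0.0140 to 0.0265 with AAV-TuD.

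Once the group means were removed, the 10 genes did not vary as 1 unit over the 11 livers. The highest Pearson correlation of log2 CPM was 0.80 between *Apob* and *Apoa1*, followed by 0.68 between *Apoa2* and *Apoc1*, and the lowest was -0.49 between *Apob* and *Apoe* (n = 11 livers that share library depth and composition). Outside the 10, the genes most like *Apob* were *Gm4076* (r = 0.92) and *Nabp2* (r = 0.91), and those most like *Tm6sf2* were *Ggt6* (r = 0.95) and *Scpep1* (r = 0.93), among 8363 genes compared over 11 livers. The top of so many correlations over so few livers is high by selection, and these were not tested against chance.

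The neighbours in the apolipoprotein clusters did not all follow the assembly genes. *Apoc3*, which lies between *Apoa1* and *Apoa4* (chromosome 9 from 46232933 to 46235636, - strand) and whose protein inhibits lipolysis and uptake, had 1315 ± 125 CPM in AAV-NC (SD, n = 5) and 1532 ± 73.9 CPM in AAV-TuD (SD, n = 6). Its log2 fold change was 0.22 (adjusted p = 0.117 by edgeR and 0.0345 by DESeq2). The number of *Apoc3* reads per *Apob* read, likewise a pair chosen after the fact, was 0.690 to 0.921 in the controls and 1.05 to 1.43 with AAV-TuD, without overlap. *Apoa5*, a cofactor of triglyceride lipolysis in the same cluster, had 135 ± 19.99 and 112 ± 12.5 CPM (SD, n = 5 and n = 6), with a log2 fold change of -0.27 (adjusted p = 0.0950 from the same edgeR test, 0.0343 without AAV-NC 7). *Apoc4*, beside *Apoc1*, stood at 698 ± 38.4 and 709 ± 38.1 CPM (SD, n = 5 and n = 6). *Apoc2* was not analysed here.

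Beyond the 10, 123 genes of 6 lists around lipoproteins were tested, and 7 were higher and 15 lower, with a median log2 fold change of -0.04. Of all 13334 genes tested 7.24% were higher and 4.33% lower, the shares to set beside this and each list below. With library size alone 10 of the 123 were higher and 1 lower, against 1386 and 71 of all 13334 genes. With cyclic loess 9 were higher and 4 lower, against 5.32% and 2.35% of all genes. Among 33 partners of VLDL assembly and secretion, 6 were lower and 1 higher, with a median of -0.13. *Dgat2*, which makes triglyceride, fell from 214 ± 20.6 (SD, n = 5) to 162 ± 15.1 CPM (SD, n = 6), a log2 fold change of -0.40 (adjusted p = 0.00599 from the same edgeR test). The carboxylesterase *Ces3b* fell by 0.57 (adjusted p = 0.00499, edgeR) and *Aadac*, which encodes a lipase of the endoplasmic reticulum, by 0.29 (adjusted p = 0.0126, edgeR) on the log2 scale. The *Aadac* call was lost with cyclic loess (adjusted p = 0.133, limma), and those of *Dgat2* and *Ces3b* were kept. All of these calls were lost with library size alone. *Mia3*, which encodes a receptor for large cargo at sites of exit from the endoplasmic reticulum, fell by 0.33 (adjusted p = 0.0231, edgeR), and this call was lost without AAV-NC 1 or AAV-NC 6 (adjusted p up to 0.0628). The *Mia3* call was also lost with cyclic loess (adjusted p = 0.143, limma) and with library size alone (adjusted p = 0.781, edgeR). *Sec23a*, which encodes a component of the COPII coat, rose by 0.36 (adjusted p = 0.0217, edgeR), a call lost without AAV-NC 2, 6 or 7 (adjusted p up to 0.0576).

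**Figure D4:**
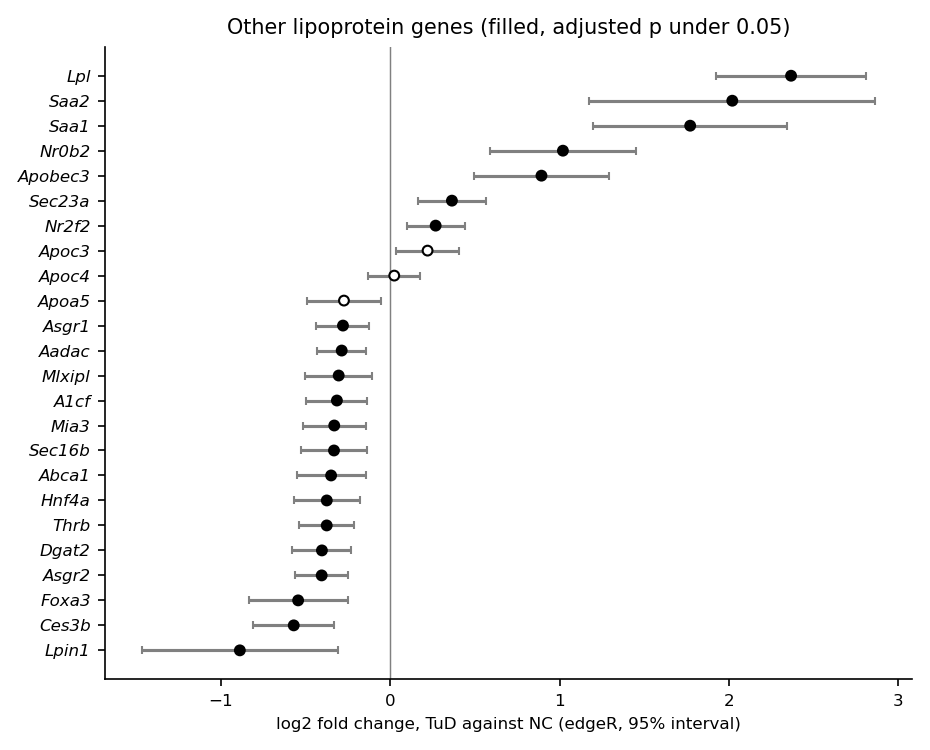
Log2 fold change with 95% interval (edgeR) of 21 of the 22 other lipoprotein genes past the threshold (filled points) and of *Apoc3*, *Apoc4* and *Apoa5* (open points, not past it). The lower genes lie between -0.89 and -0.28, and *Lpl*, *Saa2* and *Saa1* reach 2.37, 2.02 and 1.77.

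Of 15 other apolipoproteins, 2 were higher and none lower. Both were acute phase proteins of HDL, *Saa1* at 20.6 ± 9.38 (SD, n = 5) and 70.8 ± 21.2 CPM (SD, n = 6) and *Saa2* at 7.24 ± 5.27 (SD, n = 5) and 29.97 ± 14.7 CPM (SD, n = 6), with log2 fold changes of 1.77 (adjusted p = 0.00106) and 2.02 (adjusted p = 0.00499, both from the same edgeR test). The coding sequences of *Saa1* and *Saa2* are close copies, so the division of reads between them is uncertain.

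Of 5 genes of *Apob* mRNA editing, which shortens the protein, *A1cf*, a cofactor of the editing enzyme, was lower by 0.32 on the log2 scale (adjusted p = 0.0247, edgeR), and the call was lost without AAV-NC 1, AAV-NC 6, AAV-TuD 4 or AAV-TuD 10 (adjusted p up to 0.0666). Cyclic loess (adjusted p = 0.133, limma) and library size alone (adjusted p = 0.764, edgeR) also ended the *A1cf* call. *Apobec1*, the enzyme itself, had 8.29 ± 1.15 and 9.46 ± 1.91 CPM (SD, n = 5 and n = 6, adjusted p = 0.490, edgeR). *Apobec3*, a cytidine deaminase of antiviral defence that shares only its family with this route, rose by 0.89 (adjusted p = 0.00710, edgeR).

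Of 14 genes of lipoprotein remodelling, 1 was higher and 2 lower, against 7.24% higher and 4.33% lower among all genes tested. *Lpl* was higher, with the values 10.2 ± 2.49 (SD, n = 5) and 52.8 ± 14.9 CPM (SD, n = 6). *Abca1*, which exports cholesterol to apolipoprotein A-I, was lower by 0.35 on the log2 scale (adjusted p = 0.0279, edgeR). Leaving out 1 liver ended the *Abca1* call in 5 of 11 cases (AAV-NC 1 or 8, AAV-TuD 5, 10 or 11, adjusted p up to 0.0702). Cyclic loess (adjusted p = 0.0930, limma) and library size alone (adjusted p = 0.671, edgeR) ended it too.

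Of 22 receptors and their regulators, *Asgr1* and *Asgr2*, the subunits of the asialoglycoprotein receptor, were lower by 0.28 (adjusted p = 0.0225, edgeR) and 0.41 (adjusted p = 0.00321, edgeR), the former not without AAV-NC 1 or AAV-TuD 4 (adjusted p up to 0.0622). None was higher.

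Of 34 transcription factors of apolipoprotein genes, 4 were lower and 2 higher, against 4.33% lower and 7.24% higher among all genes tested. *Hnf4a*, an activator of many apolipoprotein genes, had 154 ± 20.6 (SD, n = 5) and 119 ± 10.7 CPM (SD, n = 6), a log2 fold change of -0.38 (adjusted p = 0.0150 from the same edgeR test) that was -0.15 with library size alone. *Thrb*, the thyroid hormone receptor of liver, fell by 0.38 (adjusted p = 0.00570, edgeR) and *Foxa3* by 0.54 (adjusted p = 0.0184, edgeR). With cyclic loess the *Thrb* call was kept, and those of *Hnf4a* and *Foxa3* were lost (adjusted p = 0.0722 and 0.0724, limma). Library size alone kept none of these calls (adjusted p = 0.586, 0.595 and 0.300 in the same order, edgeR). *Mlxipl*, the carbohydrate response factor, fell by 0.30 (adjusted p = 0.0436, edgeR), and *Nr2f2*, a repressor at several apolipoprotein promoters, rose by 0.27 (adjusted p = 0.0419, edgeR). These last calls were each lost in 8 of the 11 cases with 1 liver left out, with adjusted p up to 0.109 and 0.100. *Nr0b2*, a repressor that acts on nuclear receptors, rose by 1.02 (adjusted p = 0.00546, edgeR).

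The promoter of *Apob* is shown because the gene itself was lower and is transcribed mainly in liver and intestine. RefSeq (GRCm38.p6) gives it as chr12:7977427-7977726 on the + strand, from 250 bases before to 50 bases after the start. A TATA box (TATAAA, searched on both strands) is in capitals.

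Apob promoter: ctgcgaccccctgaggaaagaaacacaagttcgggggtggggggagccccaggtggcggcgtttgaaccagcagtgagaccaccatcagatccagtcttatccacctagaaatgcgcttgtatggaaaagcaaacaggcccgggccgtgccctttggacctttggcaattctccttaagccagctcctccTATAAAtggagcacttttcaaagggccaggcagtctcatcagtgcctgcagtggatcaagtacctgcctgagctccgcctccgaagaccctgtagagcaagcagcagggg

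The letters TATAAA occur in 13.6% of 32851 promoters of this length. The motif CAAAGTCCA, a form bound by HNF4, was searched in the same way. It occurs in 0.475% of all promoters and in none of the 8 of the 10 genes that the table holds (all but *Tm6sf2* and *Apoc1*). Only these exact letters were searched, so other forms of the site would be missed. Nothing about the factor follows from the search.

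Reads on *Mttp*, *Apoh* and *Apoa4* could in part belong to a gene on the other strand. Exons of *Mttp* overlap *Trmt10a* and *Gm43691*, an exon of *Apoh* overlaps *Prkca*, and exons of *Apoa4* overlap *Gm47528* and *Gm10680*. The strand setting of the counting is not given in the sources used here. None of the 10 shares a stretch of at least 50 transcript bases at 90% identity with another gene.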

How the data were processed

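RNA was sequenced from 11 livers (6 AAV-TuD, 5 AAV-NC). The authors trimmed the reads, aligned them with STAR 2.5.3a to GRCm38 and summarised them by gene in Rsubread. The deposited table holds the resulting raw counts. The annotation, the strand setting and the handling of reads with several positions are not given in the sources used here. The groups come from the treatment label. A gene was kept when 5 or more livers each exceeded 10 reads (13334 of 13669), and tested with the quasi-likelihood functions of edgeR 4.0.16 (R 4.3.3), with TMM factors, Benjamini-Hochberg adjustment over all genes tested and a threshold of 0.05. DESeq2 1.42.0 and limma 3.58.1 served as alternatives. The p-values set the difference between the groups against the spread between these livers. In simulated counts 200 genes, drawn from all levels of abundance, were given known changes, and 13094 genes were tested. The edgeR step recovered 36.7% of changes of 0.5, 82.0% of 1, 93.75% of 1.5 and 100% of 2 on the log2 scale. More genes were called in the data (966 higher and 577 lower), so these rates need not hold there. Shares of reads were compared by two-sided exact permutation. Gene positions come from GENCODE M21, which holds 13658 of the 13669 identifiers, and sequences from RefSeq. The 10 genes, the gene lists and the cell type markers were chosen with earlier results of these data known. All 10 genes were named, and from each list the genes past the threshold (at most the 4 with the smallest p in each direction), with *Apoa5*, *Apoc2*, *Apoc3*, *Apoc4*, *Apobec1*, *Lpl* and the most abundant markers of a cell type list that moved. A few genes that this rule names are not reported here.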

Additional observations from a re-analysis of the deposited data

Results flagged for a closer look

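A liver stood apart from its group in 6 of the 88 sets of values examined, where chance gives 4.4. The ratio given is the distance from that liver to the next one, over the whole span of the group. *Apob* was lowest in AAV-NC 6, at 1360.3 CPM against 1636 to 1731 CPM in the other controls (ratio 0.743). In the same liver *Aadac* was highest, at 327 CPM against 273 to 279.8 CPM (ratio 0.874). *Saa2* was highest in AAV-NC 8, at 16.4 CPM against 3.10 to 5.97 CPM (ratio 0.785). *Nr0b2* was highest in AAV-TuD 11, at 22.7 CPM against 10.8 to 15.0 CPM (ratio 0.651). *Apobec1* was lowest in AAV-TuD 3, at 5.73 CPM against 9.58 to 11.2 CPM (ratio 0.702). The share of *Mttp* among the reads of the 10 genes was lowest in AAV-NC 8, at 0.355% against 0.449% to 0.465% (ratio 0.860).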

How the results depend on the processing

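Scaling and the correction of an abundance trend moved the calls of lower genes more than those of higher genes, and *Apob* and *Tm6sf2* kept their direction under each alternative run. Genes lower with AAV-TuD, 577 by edgeR with TMM, numbered 71 with library size alone, 313 with cyclic loess in limma-voom, and 337 to 714 with 1 liver left out, and genes higher, 966, numbered 1386, 709 and 675 to 1115. Of the 10 genes, 2 lower by that fit, 4 were lower with DESeq2, 0 with library size alone and 1 with cyclic loess, which also called 1 higher. The 15 other lipoprotein genes lower became 1 with library size alone and 9 to 16 with 1 liver left out. With cyclic loess they became 4, namely *Dgat2*, *Ces3b*, *Asgr2* and *Thrb*. Directions turned for values that did not pass the edgeR test with TMM: *Apom* 0.021 and *Apoh* 0.0046 (a gene that passed with DESeq2) with library size alone, *Apoa1* 0.026 with cyclic loess, and with 1 liver left out *Apoc4* (-0.0060 to 0.046). Among the shares, the exact p of *Apoa2* (-0.12), *Apom* (-0.031) and *Apoh* (-0.058) no longer passed 0.05 on the log2 scale while *Apoc1* (0.21) did. Without *Apoa4*, a choice made after the data were seen, these were -0.085, 0.0056, -0.022 and 0.24 in the same order. With 1 liver left out the difference in share lay between -0.079 and -0.045 percentage points for *Mttp*, past 0.05 without AAV-NC 8 or AAV-TuD 3, and between -3.73 and -1.87 for *Apoa1*, past 0.05 without AAV-TuD 3. The cause of these changes was not tested beyond the construction of each alternative. No paired analysis was possible because the replicate numbers of the groups are distinct. Changes of 0.5 on the log2 scale were recovered in 36.7% of simulated cases, with 200 changed genes drawn from all levels of abundance. This is not a rate for the 10 genes, most of which are abundant. Depth and the number of livers limit what can be said of smaller changes.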
